A study of Mus musculus with 18 samples.

Results

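Interferon regulatory factors (IRFs) and STAT2 are transcription factors that switch interferon genes on or carry the interferon signal to the nucleus. The 9 genes described here, Irf1, Irf2, Irf3, Irf4, Irf5, Irf7, Irf8, Irf9 and Stat2, were chosen by name from the 55536 genes of the count table. All 9 passed a filter on low counts that left 15204 genes for testing. RNA was measured in 18 libraries of mouse CD4 T cells, 3 in each of 6 groups. Every group came from C57BL/6 mice carrying OTII, a transgenic T cell receptor for an ovalbumin peptide. The 4 peripheral groups were naive cells from spleens and lymph nodes, sorted as low for CD44, positive for CD62L and Va2 and negative for CD25. Their genotypes were OTII and W131AOTII, each with Cbl-b or without it (Cbl-b-/- OTII, and Cbl-b-/-W131AOTII). The 2 thymic groups, OTII and W131AOTII, were Va2-positive, CD25-negative cells with CD4 but no CD8. W131A replaces 1 residue of the kinase ZAP-70 and weakens the hold that keeps the kinase inactive. Cbl-b, a ubiquitin ligase, dampens signals of that receptor. The series asks which pathways downstream of Cbl-b bear on the anergy of W131AOTII cells. By the labels there were 3 mice each of the OTII and Cbl-b-/- strains, 12 of W131AOTII and 6 of Cbl-b-/-W131AOTII. For the W131AOTII mice they put 4, and for the Cbl-b-/-W131AOTII mice 2, to a group, a word they leave undefined and that cannot mean the 6 groups here. The sources used here do not give which mice made which library, nor age or sex. A library may hold RNA pooled from more than 1 mouse, in numbers that may differ with genotype. P-values therefore measure the spread between these libraries.

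Type I interferon binds a receptor whose kinases, JAK1 and TYK2, phosphorylate STAT proteins. STAT2 and its STAT partner then join IRF9, which supplies most of the DNA contact, to form ISGF3, the complex that binds interferon-stimulated response elements (ISREs). IRF3 and IRF7 act upstream: sensors of foreign nucleic acid activate them to transcribe interferon genes, and IRF7 is itself an ISGF3 target and so amplifies the response. IRF5 acts downstream of Toll-like receptors, mainly in myeloid cells and B cells. IRF1 is induced by interferon gamma through gamma-activated sites (GAS) and activates antigen-presentation and GTPase genes, whereas IRF2 binds the same elements and can oppose it. IRF4 and IRF8 are the members restricted to lymphoid and myeloid cells. IRF4 rises with the strength of T cell receptor signalling, and IRF8 directs myeloid and B cell development.

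Promoters of 4 members that passed the test in peripheral cells are printed because their windows show the 2 elements named above, or neither. RefSeq (GRCm38.p6) gave 12 windows, each from 250 bases before to 50 bases after a start, and matched 9 of the 9 members. They were searched on both strands for the ISRE core GAAANNGAAA and the GAS letters TTCNNNGAA, 2 motifs that may share bases. Capitals mark a match; all sequences run 5′ to 3′ on the gene's strand. The windows lie at chr11:53769764-53770063 (plus strand, Irf1), chr7:141266375-141266674 (minus strand, Irf7), chr10:128270248-128270547 (plus strand, Stat2) and chr8:120736108-120736407 (plus strand, Irf8).
Irf1: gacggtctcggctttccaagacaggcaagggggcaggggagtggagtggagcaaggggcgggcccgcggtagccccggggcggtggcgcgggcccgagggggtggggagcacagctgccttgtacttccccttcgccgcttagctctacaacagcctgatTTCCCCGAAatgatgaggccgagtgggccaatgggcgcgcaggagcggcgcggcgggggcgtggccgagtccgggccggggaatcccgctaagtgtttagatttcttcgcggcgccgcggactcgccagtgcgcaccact
Irf7: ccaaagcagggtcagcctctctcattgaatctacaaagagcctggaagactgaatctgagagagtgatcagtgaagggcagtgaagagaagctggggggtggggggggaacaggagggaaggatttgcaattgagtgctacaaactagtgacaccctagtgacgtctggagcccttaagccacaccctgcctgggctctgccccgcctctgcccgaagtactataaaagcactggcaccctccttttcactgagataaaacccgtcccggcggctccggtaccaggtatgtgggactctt
Stat2: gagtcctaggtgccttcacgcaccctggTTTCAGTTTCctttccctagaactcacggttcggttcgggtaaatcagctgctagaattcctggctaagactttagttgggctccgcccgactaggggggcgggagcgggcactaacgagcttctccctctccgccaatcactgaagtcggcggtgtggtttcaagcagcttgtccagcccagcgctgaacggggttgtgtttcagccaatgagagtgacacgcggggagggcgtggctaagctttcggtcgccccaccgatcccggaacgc
Irf8: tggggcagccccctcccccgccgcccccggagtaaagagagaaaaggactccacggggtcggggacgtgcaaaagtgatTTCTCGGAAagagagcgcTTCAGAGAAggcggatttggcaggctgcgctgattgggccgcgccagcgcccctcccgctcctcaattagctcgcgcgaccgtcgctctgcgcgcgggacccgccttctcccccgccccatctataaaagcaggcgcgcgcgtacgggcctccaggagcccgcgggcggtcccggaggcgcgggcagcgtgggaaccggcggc
The Irf1 window held 1 GAS match, TTCCCCGAA, from 90 to 82 bases before the start. The Stat2 window held 1 ISRE core on the opposite strand, printed as TTTCAGTTTC, from 222 to 213 bases before the start. The Irf8 window held 2 GAS matches, TTCTCGGAA beginning 171 bases before the start and TTCAGAGAA beginning 153 bases before it. Irf2, not printed, held 1 match of each kind. The windows of Irf3, Irf4, Irf5, Irf7 and Irf9, and the second windows of Irf1 and Irf8, held 0 matches. Of 32851 promoter windows in the RefSeq table, 3.44% held the ISRE core and 8.30% held the GAS letters. A match describes letters in the window and was not tested as a binding site.

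Total counts ran from 19708218 to 36218772 per library. Cblb, the deleted gene, had a log2 fold change of -0.89 on its loss from OTII cells (SE 0.17, adjusted p = 0.00605) and of -0.76 on its loss from W131AOTII cells (SE 0.17, adjusted p = 0.0142). Cblb RNA therefore remained, at 69.5 CPM in Cbl-b-/- OTII against 129 CPM in OTII cells and at 93.6 against 159 CPM with W131A. The deleted part of the gene is not stated and reads inside it were not analysed here, so loss of Cbl-b below means the labelled genotype. The T cell markers Cd3e and Cd4 were at 959 to 1743 and 938 to 1678 CPM over the 18 libraries, and Cd8a at 3.28 to 27.9 CPM. W131AOTII replicate 2 stood apart. Its 15 B cell markers summed to 5330 CPM against 2335 and 2431 in replicates 1 and 3, and its 12 myeloid markers to 147 CPM against 20.9 and 30.0. Cbl-b-/- OTII replicate 2 and thymic OTII replicate 3 also stood apart from their groups. CPM is a count scaled to library size and to TMM factors, which correct for composition. In bulk RNA, fewer cells of a type and less RNA per cell cannot be told apart.

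Per length of exon, Irf1 was the most abundant of the 9 members, and Irf5, Irf8 and Irf4 the least. Averaged over the 6 groups, Irf1 was at 188 CPM per kb, Irf7 at 115, Irf9 at 76.5, Irf3 at 38.4, Stat2 at 26.2 and Irf2 at 17.3. Irf4 was at 4.82, Irf8 at 4.69 and Irf5 at 2.47 CPM per kb. The spread between groups differed widely between members. The mean level of Irf2 ran from 15.3 to 19.2 CPM per kb over the 6 groups and that of Irf3 from 32.8 to 40.4. The mean of Irf4 ran from 1.58 CPM per kb in Cbl-b-/- OTII to 13.7 in thymic OTII, and that of Irf7 from 60.3 in Cbl-b-/-W131AOTII to 151 in W131AOTII. Counting is not stated to use strand, and several members overlap another gene. Shared bases are those of whole gene spans, introns included, and overlap of exons was not measured. Irf5 shares 1045 bases with Tnpo3 on the opposite strand, which averaged 162 CPM against 7.17 CPM for Irf5. Irf3 shares 1065 bases with Bcl2l12 (7.63 CPM), Irf7 shares 45 with Phrf1, Irf1 shares 907 with Gm17334, and Irf2 overlaps 3 antisense genes. Irf9 shares 123 bases with Rnf31 on the same strand. The 20337 bases that Irf8 shares with the readthrough gene Gm20388 carried a mean of 0 CPM for the latter.

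**Figure D1:**
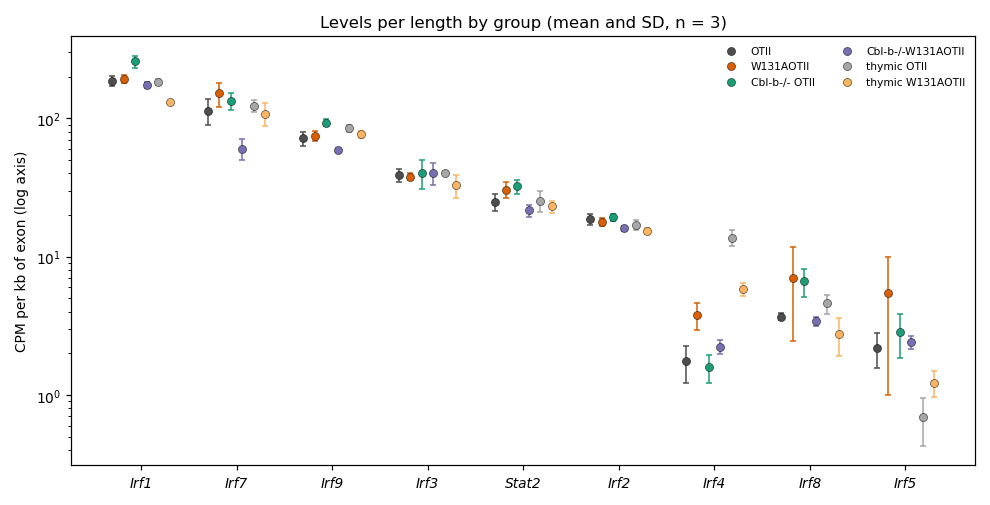
Mean level of each member per length of exon (CPM per kb, log axis) in the 6 groups, with the SD over 3 libraries as bars. Irf1, Irf7 and Irf9 sit highest, Irf2 and Irf3 are nearly level across groups, and Irf4 is highest in the 2 thymic groups.

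Loss of Cbl-b went with more RNA of some members in OTII cells and with less of others in W131AOTII cells. Calls are edgeR quasi-likelihood tests, Benjamini-Hochberg adjusted over 15204 genes at 0.05. Other methods and fits of fewer libraries also change how many of all genes are called. A call gained or lost in them need not be particular to a member. In Cbl-b-/- OTII against OTII cells, 2 of 9 members rose (Irf1 and Irf9) and 0 fell, where 5.22% of all genes tested were higher and 2.99% lower. The members' median log2 fold change was 0.37 against 0.04 for all genes. On loss of Cbl-b from W131AOTII cells, 4 of 9 fell (Irf7, Irf8, Irf4 and Stat2) and 0 rose, where 6.08% of all genes were lower and 3.18% higher. The members' median was -0.50 against 0.03. Scaling by library size alone moved the median of all genes to 0.18 there, turned the split of all calls from 483 higher and 924 lower to 960 and 531, and left 1 member lower. The interaction, which asks whether the effect of losing Cbl-b differed between W131AOTII and OTII cells, was negative for 2 of 9 members (Irf7 and Irf9) and positive for 0, where 0.592% of all genes were lower and 0.0395% higher. Its members' median was -0.72 against -0.02. Scaling by library size moved the median of all genes to 0.12 and left 1 member called.

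The other peripheral comparisons concern W131A and both changes together. In W131AOTII against OTII cells 1 of 9 members rose (Irf4) and 0 fell, where 1.68% of all genes were higher and 0.25% lower. In Cbl-b-/-W131AOTII against Cbl-b-/- OTII cells, the effect of W131A in the Cbl-b-/- genotype, 3 of 9 fell (Irf7, Irf9 and Irf1) and 0 rose, where 1.09% of all genes were lower and 0.802% higher. The members' median was -0.56 against -0.02 for all genes. Library-size scaling turned the split of all calls there from 122 higher and 165 lower to 186 and 116. In Cbl-b-/-W131AOTII against OTII cells, the cells with both changes against those with neither, 1 of 9 fell (Irf7) and 0 rose, where 3.52% of all genes were lower and 3.87% higher. Library-size scaling moved the median of all genes from 0.04 to 0.16 there and the split from 588 higher and 535 lower to 833 and 339. These comparisons share libraries, so their values are given side by side and not as separate evidence. The plot of peripheral fold changes gives each member with its interval.

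**Figure D2:**
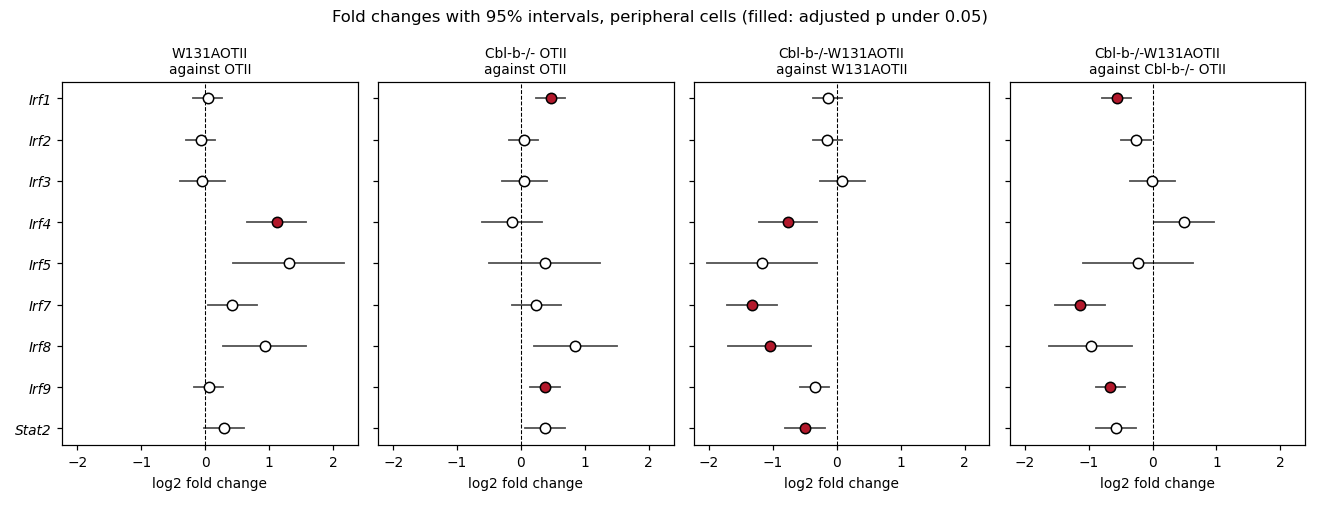
Log2 fold change of each member (x axis) with its 95% interval in 4 comparisons of peripheral cells, 3 libraries a group. Filled points passed the test: Irf4 in W131AOTII against OTII, Irf1 and Irf9 in Cbl-b-/- OTII against OTII, Irf4, Irf7, Irf8 and Stat2 in Cbl-b-/-W131AOTII against W131AOTII, and Irf1, Irf7 and Irf9 in Cbl-b-/-W131AOTII against Cbl-b-/- OTII.

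Stat2 (ENSMUSG00000040033, GRCm38 chromosome 10, 128270559 to 128292849) encodes the STAT found in ISGF3. It was at 170, 131.06 and 141 CPM in OTII replicates 1 to 3 and at 201, 154 and 186 CPM in W131AOTII. It was at 212, 167 and 193 CPM in Cbl-b-/- OTII and at 128, 115 and 141 CPM in Cbl-b-/-W131AOTII cells. The Cbl-b-/-W131AOTII libraries lay below every W131AOTII and Cbl-b-/- OTII library and overlapped the OTII libraries. Losing Cbl-b from W131AOTII cells lowered Stat2, which fell by 0.50 on the log2 scale (SE 0.15, adjusted p = 0.0440). That call was lost without any 1 of the 6 libraries compared, with adjusted p from 0.0536 to 0.150, with GC and length offsets (-0.30, adjusted p = 0.210) and under library-size scaling (0.165). Leaving out 1 library kept the Stat2 difference between -0.61 and -0.43. Calls over all genes went from 483 higher and 924 lower to 27 and 98 without Cbl-b-/-W131AOTII replicate 1, the fewest. They were 389 and 1016 without W131AOTII replicate 1, the most. Against Cbl-b-/- OTII cells the difference was -0.58 (SE 0.15, adjusted p = 0.0536; 0.0405 without Cbl-b-/- OTII replicate 2). The interaction was -0.87 (SE 0.21, adjusted p = 0.0748), and was called without W131AOTII replicate 2 (0.0445) or Cbl-b-/- OTII replicate 2 (0.0409). In the thymus Stat2 was at 121, 157 and 171 CPM in OTII and at 131.4, 152 and 127 CPM in W131AOTII cells, groups that overlapped, with an interval of the difference from -0.44 to 0.18 on the log2 scale.

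Irf9 (ENSMUSG00000002325, chromosome 14, 55603571 to 55610030) encodes the DNA-binding subunit of ISGF3. It was at 434, 376 and 347 CPM in OTII and at 487, 532 and 483 CPM in Cbl-b-/- OTII cells. It was at 410, 366 and 428 CPM in W131AOTII and at 326, 318 and 304 CPM in Cbl-b-/-W131AOTII cells. The Cbl-b-/- OTII libraries were the highest of the peripheral ones and the Cbl-b-/-W131AOTII libraries the lowest, with no overlap of either with another peripheral group. Irf9 rose by 0.38 (SE 0.11, adjusted p = 0.0400) on loss of Cbl-b from OTII cells. This call was lost without OTII replicate 2 or 3 or any 1 of the 3 Cbl-b-/- OTII libraries, with adjusted p from 0.0549 to 0.222. Calls over all genes went from 794 higher and 455 lower to 121 and 54 without OTII replicate 3, the fewest of these fits. They were 1167 and 494 without Cbl-b-/- OTII replicate 3, the most. Irf9 was 1.58-fold lower in Cbl-b-/-W131AOTII than in Cbl-b-/- OTII cells (log2 fold change -0.66, SE 0.11, adjusted p = 0.00179), a call made in every alternative run. Against W131AOTII cells the difference was -0.34 (SE 0.11, adjusted p = 0.0531). The interaction for Irf9 was -0.72 (SE 0.15, adjusted p = 0.0314). It was lost without OTII replicate 2 or 3, W131AOTII replicate 1 or 3, Cbl-b-/- OTII replicate 1 or 2, or any 1 Cbl-b-/-W131AOTII library, with adjusted p from 0.0610 to 0.142, and was 0.168 under library-size scaling. Over all genes the interaction was lower for 90 with all libraries and for 61 to 121 in these fits of fewer libraries. In the thymus Irf9 was at 488, 430 and 451 CPM in OTII and at 399, 437 and 399 CPM in W131AOTII cells, which overlapped.

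Irf7 (ENSMUSG00000025498, chromosome 7, 141262706 to 141266481), the amplifier of the type I response, showed the lowest adjusted p of the 9 members in the peripheral comparisons that involve Cbl-b-/-W131AOTII cells. It was at 531, 375 and 374 CPM in OTII, 653, 443 and 617 CPM with W131A alone and 521, 563 and 423 CPM with loss of Cbl-b alone. In Cbl-b-/-W131AOTII cells it was at 208, 204 and 272 CPM, below each of the other 15 libraries. Irf7 was 2.51-fold lower than in W131AOTII cells (log2 fold change -1.33, SE 0.19, adjusted p = 0.000473). It was 2.20-fold lower than in Cbl-b-/- OTII cells (-1.14, SE 0.19, adjusted p = 0.00165) and 1.87-fold lower than in OTII cells (-0.90, SE 0.19, adjusted p = 0.00593). The OTII, W131AOTII and Cbl-b-/- OTII libraries overlapped one another. The interaction for Irf7 was -1.56 (SE 0.26, adjusted p = 0.00450). These 4 calls were made in every alternative run. In the thymus Irf7 was at 416, 467 and 513 CPM in OTII and at 454, 449 and 319 CPM in W131AOTII cells, which overlapped; the interval of the difference was -0.58 to 0.19. From thymic to peripheral W131AOTII cells Irf7 gave 0.49 (adjusted p = 0.0720), and 0.64 (adjusted p = 0.0220) without W131AOTII replicate 2.

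Irf3 (ENSMUSG00000003184, chromosome 7, 44997648 to 45002848), the constitutive factor that sensors activate through phosphorylation, passed the test in 0 of 10 comparisons with edgeR. Its unadjusted p was under 0.05 in 0 of the 10, and limma with sample weights called it in 2. It was at 150, 132 and 121 CPM in OTII and 130.9, 138 and 122 CPM in W131AOTII cells. In the Cbl-b-/- genotype it was at 129, 175 and 112 CPM in OTII cells, against 114, 137 and 165 CPM in W131AOTII cells. The peripheral groups overlapped throughout. The interval of the log2 difference ran from -0.39 to 0.31 in W131AOTII against OTII cells, from -0.30 to 0.40 for loss of Cbl-b in OTII and from -0.27 to 0.44 for its loss in W131AOTII cells. In the thymus Irf3 was at 135, 139 and 141 CPM in OTII and at 130.8, 119 and 89.0 CPM in W131AOTII cells, with no overlap and a difference of -0.29 (SE 0.17, adjusted p = 0.400). The limma fit called that difference (-0.51, adjusted p = 0.0233). Over 15204 genes it called 1262 higher and 985 lower there, against 263 and 158 with edgeR.

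Irf1 (ENSMUSG00000018899, chromosome 11, 53770014 to 53778374), the activator of interferon gamma targets, was at 819, 699 and 713 CPM in OTII and at 768, 710 and 819 CPM in W131AOTII cells, which overlapped. It was at 1034, 1122 and 919 CPM in Cbl-b-/- OTII cells, above every other library. In Cbl-b-/-W131AOTII cells it was at 680, 672 and 733 CPM. Irf1 was 1.38-fold higher in Cbl-b-/- OTII than in OTII cells (log2 fold change 0.46, SE 0.11, adjusted p = 0.0161). The adjusted p was 0.0683 and 0.0927 without OTII replicate 2 or 3, and 0.0583 without Cbl-b-/- OTII replicate 2. In these fits 267 of all genes were higher and 128 lower, then 121 and 54, and 231 and 201. With all libraries they were 794 and 455. Irf1 was 1.48-fold lower in Cbl-b-/-W131AOTII than in Cbl-b-/- OTII cells (-0.56, SE 0.11, adjusted p = 0.00695; 0.0604 without Cbl-b-/-W131AOTII replicate 2). Losing Cbl-b in W131AOTII cells gave a difference of -0.14 (SE 0.11, adjusted p = 0.429), with an interval from -0.37 to 0.09. The interaction was -0.60 (SE 0.15, adjusted p = 0.0926) and was called with DESeq2 (adjusted p = 0.00397), with limma (0.00133) and without Cbl-b-/- OTII replicate 3 (0.0395). Over all genes 6 were higher and 90 lower in the interaction with edgeR. DESeq2 gave 23 and 210, limma 282 and 416, and the fit without Cbl-b-/- OTII replicate 3 gave 18 and 201.

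Irf2 (ENSMUSG00000031627, chromosome 8, 46739732 to 46847458), the antagonist at the same elements, passed the test in 0 of 10 comparisons with edgeR, in 1 at an unadjusted p under 0.05 and in 2 with limma. It was at 124, 145 and 145 CPM in OTII and 122, 133 and 139 CPM in W131AOTII cells. In the Cbl-b-/- genotype it was at 148, 132 and 146 CPM in OTII cells, against 125, 116 and 115 CPM in W131AOTII cells. The Cbl-b-/-W131AOTII libraries lay below the Cbl-b-/- OTII libraries, with a difference of -0.26 (SE 0.11, adjusted p = 0.222), called with the limma weights (-0.32, adjusted p = 0.00737). That limma fit called 1503 of 15204 genes higher and 1235 lower there, against 122 and 165 with edgeR. For loss of Cbl-b the interval was -0.19 to 0.27 in OTII and -0.38 to 0.08 in W131AOTII cells. In the thymus Irf2 was at 130, 113 and 132 CPM in OTII and 116, 107 and 117 CPM in W131AOTII cells, which overlapped. So Irf1, the activator, passed in comparisons where Irf2, its counterpart, did not; the difference between the 2 genes was not tested.

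Irf4 (ENSMUSG00000021356, chromosome 13, 30749226 to 30766976), the member tied to antigen receptor signalling, followed a pattern of its own. It was at 60.0, 64.4 and 77.7 CPM in thymic OTII cells and at 28.9, 25.2 and 31.4 CPM in thymic W131AOTII cells, 2.37-fold lower (log2 fold change -1.24, SE 0.21, adjusted p = 0.00214). In the periphery it was at 8.84, 5.88 and 11.0 CPM in OTII and at 18.7, 22.7 and 14.4 CPM in W131AOTII cells. There the W131AOTII libraries were the higher ones, with no overlap, and Irf4 was 2.17-fold higher (log2 fold change 1.12, SE 0.22, adjusted p = 0.00716; 0.0535 without OTII replicate 2). The W131A effect was thus of opposite sign in the 2 places, and the difference between them was itself called (2.36, SE 0.31, adjusted p = 0.000865), in every alternative run.

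In the Cbl-b-/- genotype, Irf4 was at 6.15, 7.41 and 9.70 CPM in Cbl-b-/- OTII and at 10.3, 12.4 and 10.1 CPM in Cbl-b-/-W131AOTII cells. The latter lay below the W131AOTII libraries and above the Cbl-b-/- OTII libraries. Irf4 fell by 0.76 (SE 0.22, adjusted p = 0.0349) from W131AOTII to Cbl-b-/-W131AOTII cells. This call was lost without W131AOTII replicate 1 or 2 or any 1 Cbl-b-/-W131AOTII library, with adjusted p from 0.0542 to 0.148, and under library-size scaling (0.0756). Calls over all genes in these fits of fewer libraries ran from 27 higher and 98 lower to 389 and 1016. With all libraries they were 483 and 924. The difference from Cbl-b-/- OTII cells was 0.49 (SE 0.22, adjusted p = 0.259). Losing Cbl-b in OTII cells gave -0.14 (SE 0.22), with an interval from -0.60 to 0.33, and the interaction was -0.63 (SE 0.31, adjusted p = 0.422).

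From thymus to periphery, Irf4 was 7.86-fold lower in OTII cells (log2 fold change -2.98, SE 0.23, adjusted p = 3.79e-08) and 1.53-fold lower in W131AOTII cells (-0.61, SE 0.21, adjusted p = 0.0498). The W131AOTII call was lost without W131AOTII replicate 1 or 3 or any 1 thymic W131AOTII library, with adjusted p from 0.0615 to 0.201. Over the 9 members, 1 rose (Irf5) and 1 fell (Irf4) from thymic to peripheral OTII cells, where 7.75% of all genes were higher and 10.6% lower. From thymic to peripheral W131AOTII cells, 3 rose (Irf1, Irf5 and Irf8) and 1 fell (Irf4), where 8.07% of all genes were higher and 11.2% lower. Between the thymic groups, 2 of 9 fell with W131A (Irf4 and Irf1) and 0 rose, where 1.04% of all genes were lower and 1.73% higher. For the difference between the peripheral and the thymic effect of W131A, 1 of 9 was called higher (Irf4) and 0 lower, where 0.296% of all genes were higher and 0.0855% lower. Cells of the 2 places differ in maturation as well as in organ, and these cannot be told apart.

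Irf1 was the other member that was lower in thymic W131AOTII cells. It was at 685, 742 and 764 CPM in thymic OTII and at 533, 520 and 505 CPM in thymic W131AOTII cells, with no overlap, and fell by 0.49 (SE 0.11, adjusted p = 0.0155). The adjusted p was 0.0881 without thymic OTII replicate 3, 0.0711 without thymic W131AOTII replicate 3 and 0.213 in a fit of the 2 thymic groups alone. In these fits 121 of all genes were higher and 55 lower, then 149 and 59, and 106 and 40. With all libraries they were 263 and 158. Irf1 was 1.47-fold higher in peripheral than in thymic W131AOTII cells (log2 fold change 0.56, SE 0.11, adjusted p = 0.000931). The same step in OTII cells gave 0.03 (SE 0.11), with an interval from -0.20 to 0.25. The test of the difference between the W131A effects did not call Irf1 (0.53, SE 0.15, adjusted p = 0.179).

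**Figure D3:**
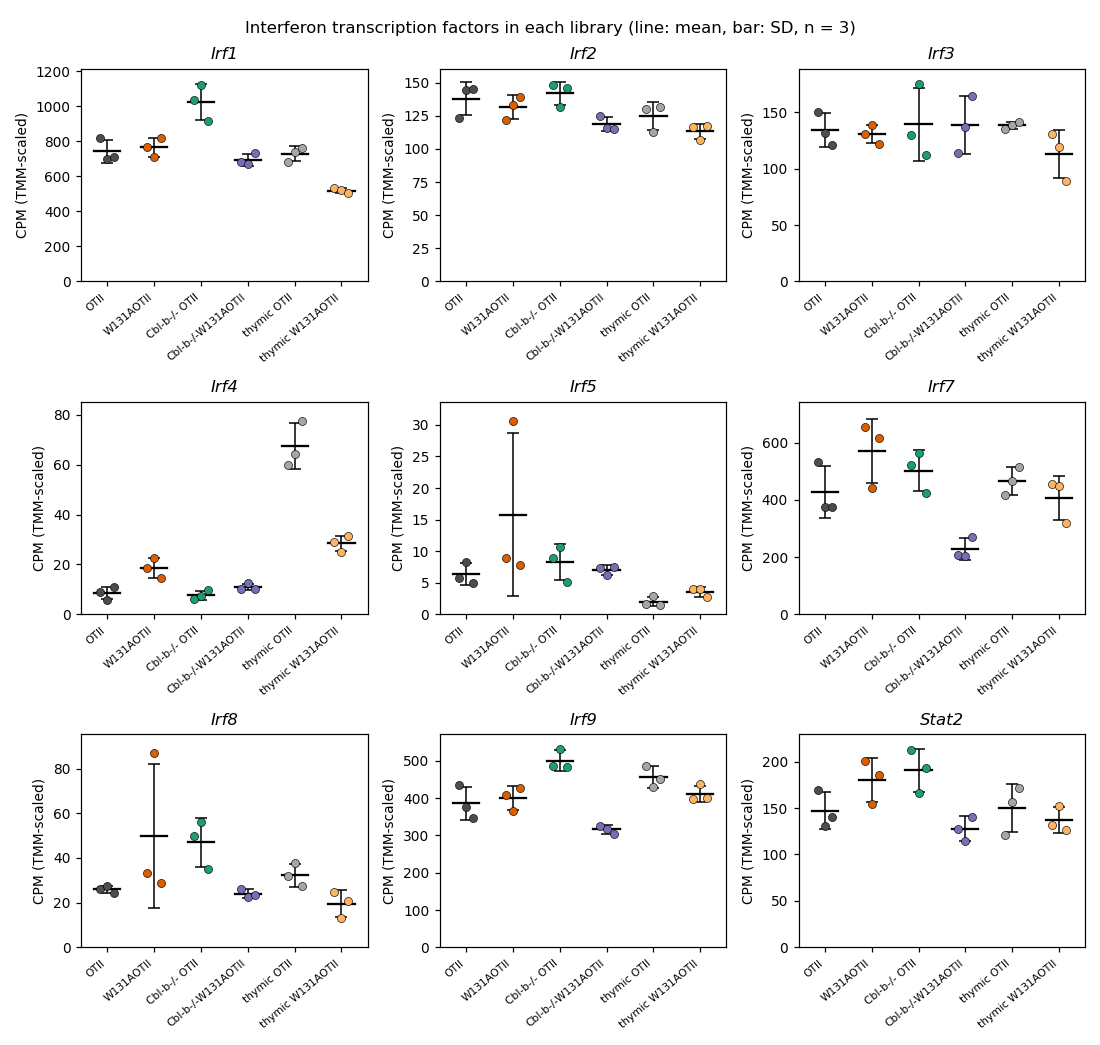
Level of each member in CPM (y axis, from 0) in every library of the 6 groups, with the group mean as a line and the SD as a bar (n = 3). Irf7 is lowest in the 3 Cbl-b-/-W131AOTII libraries (204 to 272 CPM), Irf1 is highest in the 3 Cbl-b-/- OTII libraries (919 to 1122 CPM), and 1 W131AOTII library stands above all others for Irf5 and Irf8.

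Irf8 (ENSMUSG00000041515, chromosome 8, 120736358 to 120756694) and Irf5 (ENSMUSG00000029771, chromosome 6, 29526625 to 29541871) were the members whose values rested most on 1 library. Irf8 was at 26.3, 27.5 and 24.3 CPM in OTII and at 33.3, 87.1 and 28.9 CPM in W131AOTII cells. It was at 49.8, 56.1 and 35.0 CPM in Cbl-b-/- OTII and at 26.1, 22.3 and 23.6 CPM in Cbl-b-/-W131AOTII cells. W131AOTII replicate 2 was the highest library, and the Cbl-b-/- OTII libraries lay above both the OTII and the Cbl-b-/-W131AOTII libraries. Irf8 was 2.07-fold lower in Cbl-b-/-W131AOTII than in W131AOTII cells (log2 fold change -1.05, SE 0.31, adjusted p = 0.0411), but without W131AOTII replicate 2 the difference was -0.38 (adjusted p = 0.332). That call was also lost without any 1 Cbl-b-/-W131AOTII library, with adjusted p from 0.0846 to 0.115, and at 0.0627 under library-size scaling and 0.128 with GC and length offsets. Against Cbl-b-/- OTII cells, a comparison without that library, the difference was -0.97 (SE 0.31, adjusted p = 0.121), and 0.0453 without Cbl-b-/- OTII replicate 3. It was called with DESeq2 (adjusted p = 0.0421) and limma (0.00518), and in 5 of 15 alternative runs in all. Over all genes edgeR called 122 higher and 165 lower there, DESeq2 280 and 402, and limma 1503 and 1235. Loss of Cbl-b from OTII cells gave 0.85 (SE 0.31, adjusted p = 0.0907). That rise was called with DESeq2 (adjusted p = 0.0428) and limma (0.00399), and also in 5 of 15 alternative runs. For that loss edgeR called 794 of all genes higher and 455 lower, DESeq2 1253 and 801, and limma 2809 and 2675. W131AOTII against OTII cells gave 0.94 (SE 0.31, adjusted p = 0.184), which was 0.27 (adjusted p = 1) without W131AOTII replicate 2 and 1.22 (adjusted p = 0.0377) without replicate 3. The interaction for Irf8 was -1.90 (SE 0.44, adjusted p = 0.0538) and -1.23 (adjusted p = 0.0784) without W131AOTII replicate 2. It was called without W131AOTII replicate 1 or 3 or Cbl-b-/- OTII replicate 3, with adjusted p from 0.0120 to 0.0265. DESeq2 (adjusted p = 0.00229) and limma (0.00395) also called the interaction, which was called in 8 of 21 alternative runs in all. Calls over all genes in the interaction by these methods are given with Irf1 above.

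In the thymus Irf8 was at 31.8, 37.8 and 27.5 CPM in OTII and at 24.7, 13.0 and 20.9 CPM in W131AOTII cells, with no overlap (difference -0.73, SE 0.31, adjusted p = 0.245). Irf8 was 2.55-fold higher in peripheral than in thymic W131AOTII cells (log2 fold change 1.35, SE 0.31, adjusted p = 0.00413). Without W131AOTII replicate 2 this was 0.68 (adjusted p = 0.0456), and in a fit of the 2 groups alone the adjusted p was 0.0737.

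Irf5 was at 5.81, 8.34 and 4.91 CPM in OTII and at 8.87, 30.6 and 7.86 CPM in W131AOTII cells. It was at 8.95, 10.7 and 5.12 CPM in Cbl-b-/- OTII and at 7.41, 6.16 and 7.51 CPM in Cbl-b-/-W131AOTII cells. The peripheral groups overlapped apart from W131AOTII against Cbl-b-/-W131AOTII, where the gap between 7.86 and 7.51 CPM was narrow. Irf5 passed in none of the peripheral comparisons with edgeR, and in 2 of them with DESeq2 (adjusted p = 0.0427 and 0.0321). The difference of W131AOTII from OTII cells was 1.31 (SE 0.41, adjusted p = 0.150), and 0.41 (adjusted p = 1) without W131AOTII replicate 2. It was called without W131AOTII replicate 3 (1.64, adjusted p = 0.0397). Likewise the difference of Cbl-b-/-W131AOTII from W131AOTII cells was -1.17 (SE 0.41, adjusted p = 0.0777), -0.26 (adjusted p = 0.687) without W131AOTII replicate 2 and -1.46 (adjusted p = 0.0355) without replicate 1.

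In the thymus Irf5 was at 1.65, 2.88 and 1.49 CPM in OTII and at 4.02, 3.99 and 2.71 CPM in W131AOTII cells, below every peripheral library. Irf5 was 3.12-fold higher in peripheral than in thymic OTII cells (log2 fold change 1.64, SE 0.44, adjusted p = 0.0125). This call was lost without OTII replicate 2 or thymic OTII replicate 1 or 3, with adjusted p from 0.0533 to 0.0593. In W131AOTII cells it was 4.40-fold higher (2.14, SE 0.43, adjusted p = 0.00127), and 1.22 (adjusted p = 0.0133) without W131AOTII replicate 2.

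The library with the highest Irf5 and Irf8, W131AOTII replicate 2, also had the highest sums of B cell and myeloid markers. The summed B cell markers were 2249 to 2607 CPM in OTII, 2335 to 5330 with W131A alone, 1926 to 2442 with loss of Cbl-b alone and 1657 to 1821 with both, and 667 to 1033 CPM in the 6 thymic libraries. The summed myeloid markers were 23.7 to 29.0, 20.9 to 147, 34.6 to 55.2 and 12.2 to 14.1 CPM in the same 4 peripheral groups, 9.25 to 11.7 CPM in thymic OTII and 7.38 to 10.6 CPM in thymic W131AOTII cells. Irf8 was at 27.5 to 37.8 CPM in thymic OTII and at 24.3 to 27.5 CPM in OTII cells. The log2 difference of OTII from thymic OTII cells was -0.31 (SE 0.31, adjusted p = 0.553). From W131AOTII to Cbl-b-/-W131AOTII cells, 13 of 15 B cell markers and 6 of 11 tested myeloid markers fell and 0 rose. Without W131AOTII replicate 2, 3 B cell markers and 1 myeloid marker fell. Of 15204 genes, 924 (6.08%) were lower there with all libraries and 263 without that replicate. From thymus to periphery, 13 of 15 B cell markers rose in OTII and 14 of 15 in W131AOTII cells, where 7.75% and 8.07% of all genes were higher. Of the defining markers, the myeloid gene Cd14 was at 0 in 15 of 18 libraries and Csf1r in 4. All other listed myeloid markers were above 0 in every library. The dendritic cell genes Clec9a, Cd209a, Siglech and Itgax were at 0 in 13, 14, 9 and 3 libraries, and the others listed in none. The B cell genes Pax5, Ebf1 and Fcrla were at 0 in 5, 1 and 1 libraries, and the others, Cd79a among them, in none. The part of these cells in the Irf5 and Irf8 values was not tested.

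**Figure D4:**
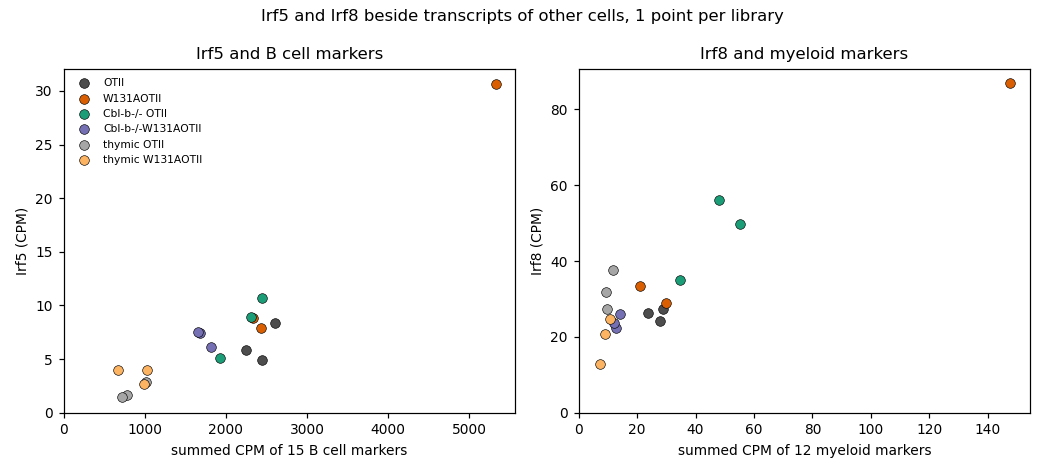
Irf5 in CPM against the summed CPM of 15 B cell markers (left) and Irf8 in CPM against the summed CPM of 12 myeloid markers (right), 1 point per library, coloured by group. W131AOTII replicate 2 is the point at the far right of both panels (5330 CPM of B cell and 147 CPM of myeloid markers).

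Genes that respond to these factors were counted from lists chosen with earlier results of these data known, so the counts describe the lists. The share of all genes called in each comparison is given above, beside the counts of members. Of 34 tested ISGF3 target genes, 26 fell and 0 rose in Cbl-b-/-W131AOTII against W131AOTII cells, with a median log2 fold change of -1.23 against 0.03 for all genes. Without W131AOTII replicate 2, 25 fell, where 263 of 15204 genes were lower. The lowest adjusted p values belonged to Rsad2 (log2 fold change -2.53, SE 0.21), the antiviral enzyme viperin, Ifit3b (-2.48, SE 0.21) and Cmpk2 (-1.62, SE 0.15). With W131A in the Cbl-b-/- genotype 21 fell and 0 rose (median -0.93), and in Cbl-b-/-W131AOTII against OTII cells 16 fell and 0 rose (median -0.68). The interaction was negative for 19 and positive for 0 (median -1.43). In W131AOTII against OTII cells 3 rose (Oas1a, Ifitm3 and Oas3) and 0 fell, and 6 rose without W131AOTII replicate 2. On loss of Cbl-b from OTII cells 7 rose and 1 fell (Slfn5), and 4 rose without the 3 libraries that stood apart. Between the thymic groups the median of the 34 was 0.10, against 0.01 for all genes. From thymus to periphery 7 rose and 1 fell in OTII and 14 rose in W131AOTII cells, among them Ifit3 (1.02, SE 0.20 and 1.45, SE 0.20).

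The 23 targets of IRF1 and interferon gamma were counted in the same way. In Cbl-b-/- OTII against OTII cells 16 rose and 0 fell, with a median of 0.82 against 0.04 for all genes. They included the GTPases Igtp (1.19, SE 0.11), Gbp3 (1.26, SE 0.13), Iigp1 (1.88, SE 0.24) and Gbp2 (1.07, SE 0.14). With W131A in the Cbl-b-/- genotype 12 fell and 0 rose, with a median of -0.78. On loss of Cbl-b from W131AOTII cells 3 rose and 4 fell. Cxcl10, a chemokine, fell by 2.40 (SE 0.39) and Ciita, the class II transactivator, by 2.55 (SE 0.47), while Gbp4 rose by 0.70 (SE 0.20). In that comparison 13 of 15 B cell and 6 of 11 myeloid markers also fell, and their part in the Cxcl10 and Ciita values was not tested. Without W131AOTII replicate 2 that count was 0 higher and 3 lower, and under library-size scaling 5 higher and 2 lower. Over all genes these fits gave 59 higher and 263 lower, and 960 and 531. The interaction was negative for 8 and positive for 0, with Igtp at -1.17 (SE 0.16).

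Upstream lie receptors, kinases and sensors. Of 8 tested receptor and JAK genes, 2 fell in Cbl-b-/- OTII against OTII cells: Tyk2 (-0.70, SE 0.18, adjusted p = 0.0223) and Jak1 (-0.50, SE 0.15, adjusted p = 0.0450). In that comparison 2.99% of all genes were lower. JAK1 and TYK2 are the kinases of the type I receptor. Ifnar1, a chain of that receptor, gave a log2 difference of 0.11 (SE 0.12) on loss of Cbl-b from OTII and 0.13 (SE 0.12) from W131AOTII cells. Among 5 further STATs, Stat6 (-0.52, SE 0.13) and Stat4 (-0.55, SE 0.16) fell on loss of Cbl-b in OTII cells, and Stat3 (-0.67, SE 0.14) and Stat6 (-0.50, SE 0.13) in W131AOTII cells. Of 16 sensing genes 7 fell and 0 rose in Cbl-b-/-W131AOTII against W131AOTII cells. They included Dhx58 (-1.45, SE 0.15), an RNA helicase of the RIG-I family, Trim25 (-0.78, SE 0.12), a ubiquitin ligase of that pathway, and Myd88 (-0.57, SE 0.11), the Toll-like receptor adaptor. Without W131AOTII replicate 2, 5 fell, where 263 of 15204 genes were lower. With all libraries, 6.08% of all genes were lower in that comparison and 3.18% higher. Dhx58 was also among the 3 genes most like Irf7 (r = 0.89). Whether the fall of the sensing genes is separate from that of the ISGF3 targets was not tested.

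Of 7 interferon genes in the table, Ifng passed the filter and the other 6 did not. Ifnb1, Ifna1, Ifna2, Ifna4 and Ifne were at 0 in all 18 libraries. Ifng was at 0, 0.0684 and 0 CPM in OTII and at 0.150, 0.682 and 0.307 CPM in Cbl-b-/- OTII cells, and at 0, 0.0321 and 0.0318 CPM in W131AOTII and 0.498, 0.149 and 0.347 CPM in Cbl-b-/-W131AOTII cells. Loss of Cbl-b was called higher in both backgrounds (adjusted p = 0.0292 and 0.0286). These values rest on so few counts in the OTII and W131AOTII groups that no fold is given. Among 14 inhibitors, 2 rose (Socs1 and Socs2) and 2 fell (Ptpn6 and Socs3) on loss of Cbl-b from OTII cells. There 5.22% of all genes were higher and 2.99% lower. Socs1, which blocks JAK kinases, rose by 0.90 (SE 0.17, adjusted p = 0.00551). On loss of Cbl-b from W131AOTII cells 4 inhibitors fell (Usp18, Ptpn6, Socs3 and Ptpn1) and 0 rose. There 6.08% of all genes were lower and 3.18% higher. Usp18, which acts at the type I receptor, fell by 0.99 (SE 0.14, adjusted p = 0.000552). Usp18 is also on the list of ISGF3 targets, so its fall is counted in both lists.

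For IRF4, 16 partners and targets in T cells were tested. In W131AOTII against OTII cells 2 rose, Maf (2.77, SE 0.58) and Tbx21 (2.08, SE 0.47), transcription factors of T helper and other lymphocytes, and 0 fell. Neither was called without W131AOTII replicate 2. With all libraries, 1.68% of all genes were higher in that comparison and 0.25% lower. The 8 markers of NK and innate-like cells summed to 83.3 to 95.8 CPM in OTII and 180 to 430 CPM in W131AOTII cells, 2 of them rose (Eomes and Trdc), and their part in these values was not tested. From W131AOTII to Cbl-b-/-W131AOTII cells 4 fell and 0 rose: Bcl6 (-0.94, SE 0.17), Spib (-3.10, SE 0.65), Spi1 (-3.01, SE 0.68) and Nfatc1 (-0.48, SE 0.14). There 6.08% of all genes were lower and 3.18% higher. Spib and Spi1 encode factors of B cells and myeloid cells, whose markers fell in the same comparison. From thymus to periphery, 5 rose and 3 fell in OTII and 7 rose and 3 fell in W131AOTII cells. Of all genes, 7.75% were higher and 10.6% lower in OTII, and 8.07% and 11.2% in W131AOTII cells. In OTII cells the listed genes that rose included Prdm1 (1.40), and the listed genes that fell included Maf (-5.13, SE 0.60) and Gata3 (-1.63, SE 0.23).

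Across the 18 libraries, the genes most like each member by Pearson correlation of log2 CPM differed between members. The libraries share groups, depth and composition, so these correlations describe the data. Irf7 was most like Daxx (r = 0.91), Isg15 (0.90) and Dhx58 (0.89), and Irf9 most like Rtp4 (0.92), Xaf1 (0.89) and Phf11c (0.86). Stat2 was most like Zbp1 (0.83), Oasl2 (0.80) and Trim21 (0.78), and Irf1 most like Gbp2 (0.92), Il18bp (0.92) and Tap1 (0.91). Isg15, an antiviral ubiquitin-like protein, was at 23.4, 23.5 and 25.5 CPM in Cbl-b-/-W131AOTII cells, below its 50.7 to 65.2 CPM in OTII cells. Irf4 was most like Nr4a1 (0.97), an immediate response gene of the T cell receptor, then Plpp7 (0.95) and Edaradd (0.95). Nr4a1 was at 40.5, 38.9 and 40.2 CPM in OTII, at 69.3, 69.0 and 49.9 CPM in W131AOTII, at 225 to 250 CPM in thymic OTII and at 95.4 to 147 CPM in thymic W131AOTII cells. It was at 27.7 to 35.3 CPM in Cbl-b-/- OTII and at 47.0 to 51.7 CPM in Cbl-b-/-W131AOTII cells. Nr4a1 was picked for its likeness to Irf4, so these levels only show what the correlation rests on.

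The remaining members had neighbours of another kind. Irf8 was most like Tyrobp (0.90), a signalling adaptor of myeloid and natural killer cells, then Pkib (0.87) and Pim2 (0.84), and Irf5 most like Dok3 (0.93), Serpinb1a (0.91) and Pecr (0.91). Without W131AOTII replicate 2, Tyrobp was the twelfth gene for Irf8, at 0.85, and Pkib the 163rd, at 0.79, and Serpinb1a was the 62nd for Irf5, at 0.86. Irf3 was most like Sigirr (0.92), Pold4 (0.92) and Sharpin (0.91), and Irf2 most like Otud1 (0.81), Mob3b (0.80) and Taf3 (0.80). Between members, the highest correlations were those of Irf7 with Stat2 (0.75) and with Irf9 (0.74), and the lowest was that of Irf4 with Irf5 (-0.65).

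**Figure D5:**
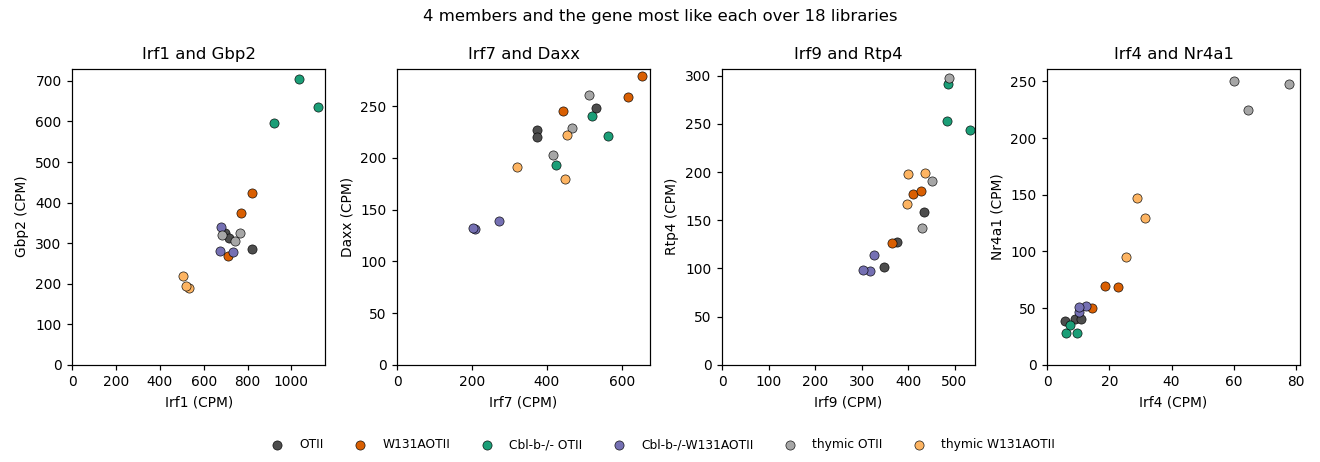
CPM of Irf1, Irf7, Irf9 and Irf4 (x axes) against the gene most like each, Gbp2, Daxx, Rtp4 and Nr4a1 (y axes), 1 point per library, coloured by group. The Cbl-b-/-W131AOTII libraries have the lowest Irf7, and the 3 thymic OTII libraries the highest Irf4 and Nr4a1.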

How the data were processed

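The deposited values were whole-number read counts per gene, 1 column per library, made by the authors from 50-base single-end reads of total RNA. The submitters' processing notes name the aligner STAR 2.7.2, the genome GRCm38 and DESeq2. The counting step, its annotation and its use of strand are each not given in the sources used. All 55536 gene identifiers matched GENCODE, Ensembl release 96, which gave symbols and coordinates.

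From these counts, edgeR 4.0.16 in R 4.3.3 kept 15204 genes (filterByExpr), scaled libraries by TMM and fitted 1 mean per group over all 18 libraries, with 12 residual degrees of freedom. The quasi-likelihood test (robust) gave p-values, Benjamini-Hochberg adjusted over all genes, called at 0.05. Intervals are 95%. There were 10 comparisons. An exact permutation test of 3 against 3 cannot go below 0.10, so no single-gene permutation test was used. Correlations used log2 CPM with a prior count of 2.

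Alternatives were DESeq2 1.42.0, limma 3.58.1 (voom with sample weights), other scalings, no filter, the replicate number as a block, GC and length offsets (splines of 5 degrees of freedom), fits of only the groups compared, and leaving out libraries, 1 at a time or the 3 that stood apart in an earlier analysis. The 9 members and all gene lists were chosen with earlier results of these data known. Named genes were the members, the altered gene Cblb, up to 4 genes per list with the lowest adjusted p among those called, receptor, JAK and STAT genes, and the 3 genes most like each member. Ifng, Slfn5, Igtp in the interaction, Ifit3, Cd79a, Eomes, Trdc and the defining markers at 0 were named after their values were seen.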

Additional observations from a re-analysis of the deposited data

Results flagged for a closer look

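For 3 results, the effect of one change differed between backgrounds or places by a direct test in edgeR's quasi-likelihood fit. For Irf7 the effect of losing Cbl-b on the log2 scale was 0.24 in OTII and -1.33 in W131AOTII cells, a difference of -1.56 (SE 0.26, adjusted p = 0.00450). For Irf9 it was 0.38 and -0.34, a difference of -0.72 (SE 0.15, adjusted p = 0.0314). For Irf4 the effect of W131A was 1.12 in the periphery and -1.24 in the thymus, a difference of 2.36 (SE 0.31, adjusted p = 0.000865).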

How the results depend on the processing

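Of 90 member results, 22 were called and 10 of these were called in every alternative: Irf7 in 3 comparisons of Cbl-b-/-W131AOTII cells and the interaction, Irf9 in Cbl-b-/-W131AOTII against Cbl-b-/- OTII, Irf4 in the thymus, in OTII maturation and in periphery against thymus, and Irf1 and Irf5 in W131AOTII maturation. Of 1458 alternative values 59 changed sign, 0 of them with a call. Counts of members called moved as follows, and the cause was not tested. Calls over all genes moved too, so a changed count need not be particular to the members. For Cbl-b loss in OTII edgeR called 794 of all genes higher and 455 lower. DESeq2 called 1253 and 801, limma 2809 and 2675, and the fit without OTII replicate 3 called 121 and 54. GC and length offsets went the other way there, with more members called but fewer of all genes. For W131A in the periphery the count was 1, 3 with no filter, 2 with DESeq2 and 0 to 3 leaving out 1 library. For Cbl-b loss in OTII it was 2, 3 with DESeq2, 4 with GC and length offsets, 5 with limma, 0 without the 3 libraries that stood apart and 0 to 2 leaving out 1. For Cbl-b loss in W131AOTII it was 4, 1 under library-size scaling, 2 with the replicate block, 2 with GC and length offsets, 2 without the 3 libraries, 5 with DESeq2 size factors, no filter or limma, 6 with DESeq2 and 1 to 3 leaving out 1. For W131A in the Cbl-b-/- genotype it was 3, 5 with no filter, 5 with DESeq2, 7 with limma and 2 to 4 leaving out 1. For both changes against neither it was 1, 2 with only the groups compared, 2 with DESeq2, 3 with limma and 1 in each fit leaving out 1. For the interaction it was 2, 1 under library-size scaling, 5 with no filter, DESeq2 or limma and 1 to 4 leaving out 1. For W131A in the thymus it was 2, 1 with only the groups compared, 3 with no filter or limma and 1 to 2 leaving out 1. For OTII maturation it was 2, 3 with limma and 1 to 2 leaving out 1. For W131AOTII maturation it was 4, 2 with only the groups compared, 6 with DESeq2, no filter, GC and length offsets or without the 3 libraries, 7 with limma and 3 to 6 leaving out 1. For periphery against thymus it was 1, 2 with no filter, 3 with DESeq2, 3 with limma and 1 to 2 leaving out 1. With the replicate block W131AOTII maturation had 3 calls. Deviations of same-numbered libraries correlated from -0.304 to 0.205 over 45 pairs, and 5 of 18 libraries were closest to their own number, so the number was not used as a pairing. This does not show that the libraries came from separate mice: with 3 OTII mice in all, peripheral and thymic OTII libraries may share animals, and the maturation tests treat them as independent. Irf4, Irf5 and Irf8 have the lowest counts of the members, which limits their precision.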
